A study of Mus musculus with 73 samples.

Results

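Of the 39438 gene symbols in the count table, 43 have the form of a collagen chain, and 38 of these were followed here in 73 mouse mammary tumours. The other 5 symbols, Col2a1, Col9a1, Col9a2, Col9a3 and Col11a1, encode cartilage collagens and were left out by rule, so no measured value chose the members. By the structure of their products the members comprised 9 fibrillar chains, 5 basement membrane chains, 6 microfibril chains, 6 FACIT chains and 12 of other kinds. FACIT stands for fibril-associated collagens with interrupted triple helices. Col4a6 was not analysed here.

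RNA from each tumour was sequenced as a stranded poly(A) library. The genotype labels are KB1(L1363P)P, KP, KB1P and KB2P. In this field KP, KB1P and KB2P name mice in which Cre under the keratin 14 promoter deletes floxed Trp53 alone, with Brca1, or with Brca2, so loss of Trp53 in cells that use that promoter is common to all groups, controls included. The label KB1(L1363P)P, shortened here to L1363P, has the form of KB1P with the BRCA1 coiled-coil variant L1363P of the study's title. The labels used here give no age, strain or animal. The L1363P tumours were 3 adenocarcinomas, 9 carcinosarcomas and 9 sarcomatoid tumours. The KP tumours were 5 adenocarcinomas and 3 carcinosarcomas. All 44 remaining tumours were adenocarcinomas, 21 of them KB1P, of which 10 have the title KB1PM, and 23 KB2P. A carcinosarcoma holds malignant epithelial and spindle cell parts, and a sarcomatoid tumour is spindle cell tumour throughout. The labels give 100% epithelial tissue for adenocarcinomas, 0% for sarcomatoid tumours and 2% to 98% for L1363P carcinosarcomas.

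Collagens are trimers of chains built from triplets that open with glycine, the only residue small enough for the centre of the triple helix. Fibrillar chains such as Col1a1, Col1a2 and Col3a1 make the tension-bearing fibrils of stroma and are secreted mainly by fibroblasts and other mesenchymal cells. Type IV chains form the sheet of the basement membrane beneath epithelium and around vessels, type VI chains form beaded microfibrils at the cell surface, and FACIT chains sit on fibril surfaces. In the mammary gland the basement membrane borders the epithelium, and a dense fibrillar stroma is a known feature of breast tumours.

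The 2 coding stretches below show what separates the main classes. Each spans 24 codons of a GENCODE M21 transcript, is written 5′ to 3′ in coding sense, and has every glycine codon in capitals. The Col1a1 stretch covers codons 675 to 698 and the Col4a1 stretch codons 154 to 177.

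Col1a1: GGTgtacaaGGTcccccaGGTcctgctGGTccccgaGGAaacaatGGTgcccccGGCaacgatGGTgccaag

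Col4a1: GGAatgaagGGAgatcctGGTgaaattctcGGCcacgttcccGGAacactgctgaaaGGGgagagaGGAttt

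In Col1a1 a glycine codon opens every triplet, whereas in Col4a1 the spacing is broken, which gives the type IV helix its flexibility. The longest unbroken Gly-X-Y run exceeded 300 triplets in 7 of the 9 fibrillar chains, with 344 in Col3a1. Col24a1 and Col27a1 were shorter at 216 and 217 triplets. The 5 basement membrane chains had longest runs of 39 to 66 triplets, and each was divided into 22 to 27 runs of at least 5 triplets.

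Total counts ranged from 7325180 to 31615237 per library. The leading number of each library name in the labels, taken here as its sequencing run, puts every L1363P and KP tumour in run 5625 and no KB1P or KB2P tumour there, so genotype and run cannot be told apart in comparisons across that line. KB1P and KB2P also share no run. The labels do not say that tumours came from separate mice, and carcinosarcomas 54.1 and 54.2 share a number, so p-values measure the spread between these samples alone. Some libraries went against their labels. KP adenocarcinoma 90.01A had 1.65 CPM (a gene's count as a rate of the scaled library total) of Epcam, an epithelial adhesion gene, against 654.5 to 933.7 in the other 4, and its Dcn, a fibroblast proteoglycan gene, was the highest of all tumours at 3327 CPM. KB2P adenocarcinoma 30 had a sum of only 14.2 CPM over 6 epithelial markers, against a KB2P median of 1977. KB1PM adenocarcinoma 8 was also low in that sum, at 126.6 CPM against a KB1PM median of 2810. L1363P carcinosarcoma 6, labelled 95% epithelial, was mixed. It had 99.4 CPM of Epcam against 520.9 to 1213 in the other 5 labelled at least 75%, and 11.2 CPM of Krt8. Its Krt5, also an epithelial marker, was 551.8 CPM, against at most 5.99 in the other L1363P carcinosarcomas. It also had 600.1 CPM of the skeletal muscle gene Acta1. Carcinosarcomas 17 and 4, labelled 5% and 2%, had 0.891 and 1.555 CPM of Epcam and stand at the other end of that group. Comparisons within run 5625 were repeated without 90.01A, 17 and 4, and KB1P against KB2P without tumour 30 and without tumour 8. Other results that include tumour 30 are given only with it. In bulk RNA, fewer cells of a type and less RNA per cell cannot be told apart.

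Collagen RNA took the largest median share of counts in sarcomatoid tumours. The 38 members made up 0.613%, 0.983% and 1.00% of counts in the 3 L1363P adenocarcinomas. In the 9 L1363P sarcomatoid tumours their share was 1.71% at the lowest, 2.90% at the median and 3.72% at the highest. Every sarcomatoid tumour thus lay above every L1363P adenocarcinoma. The L1363P carcinosarcomas lay on both sides, from 0.539% through a median of 1.36% to 2.77%. KB2P adenocarcinomas had a median of 0.856%, with a range of 0.571% to 2.07%. KP adenocarcinomas had a median of 1.91%, with a range of 0.9% to 2.59%. The KP and KB2P ranges thus overlapped that of sarcomatoid tumours.

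The kind of collagen differed as well as the amount. Fibrillar chains supplied a median 78.6% of all collagen counts in sarcomatoid tumours, 53.7% in L1363P carcinosarcomas, 45.8% in L1363P adenocarcinomas and 19.3% in KB2P adenocarcinomas. The fibrillar median of KP adenocarcinomas was 51.3%. Basement membrane chains supplied a median 4.33% in sarcomatoid tumours, with a highest value of 8.21%. In L1363P adenocarcinomas they supplied 15.8% to 25.5%, so these ranges did not overlap. In KB2P adenocarcinomas the basement membrane median was 41.6%, in KB1PM 43.4% and in KB1P 34.3%. Those 3 medians were above the L1363P adenocarcinoma values, across the line of run 5625.

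**Figure D1:**
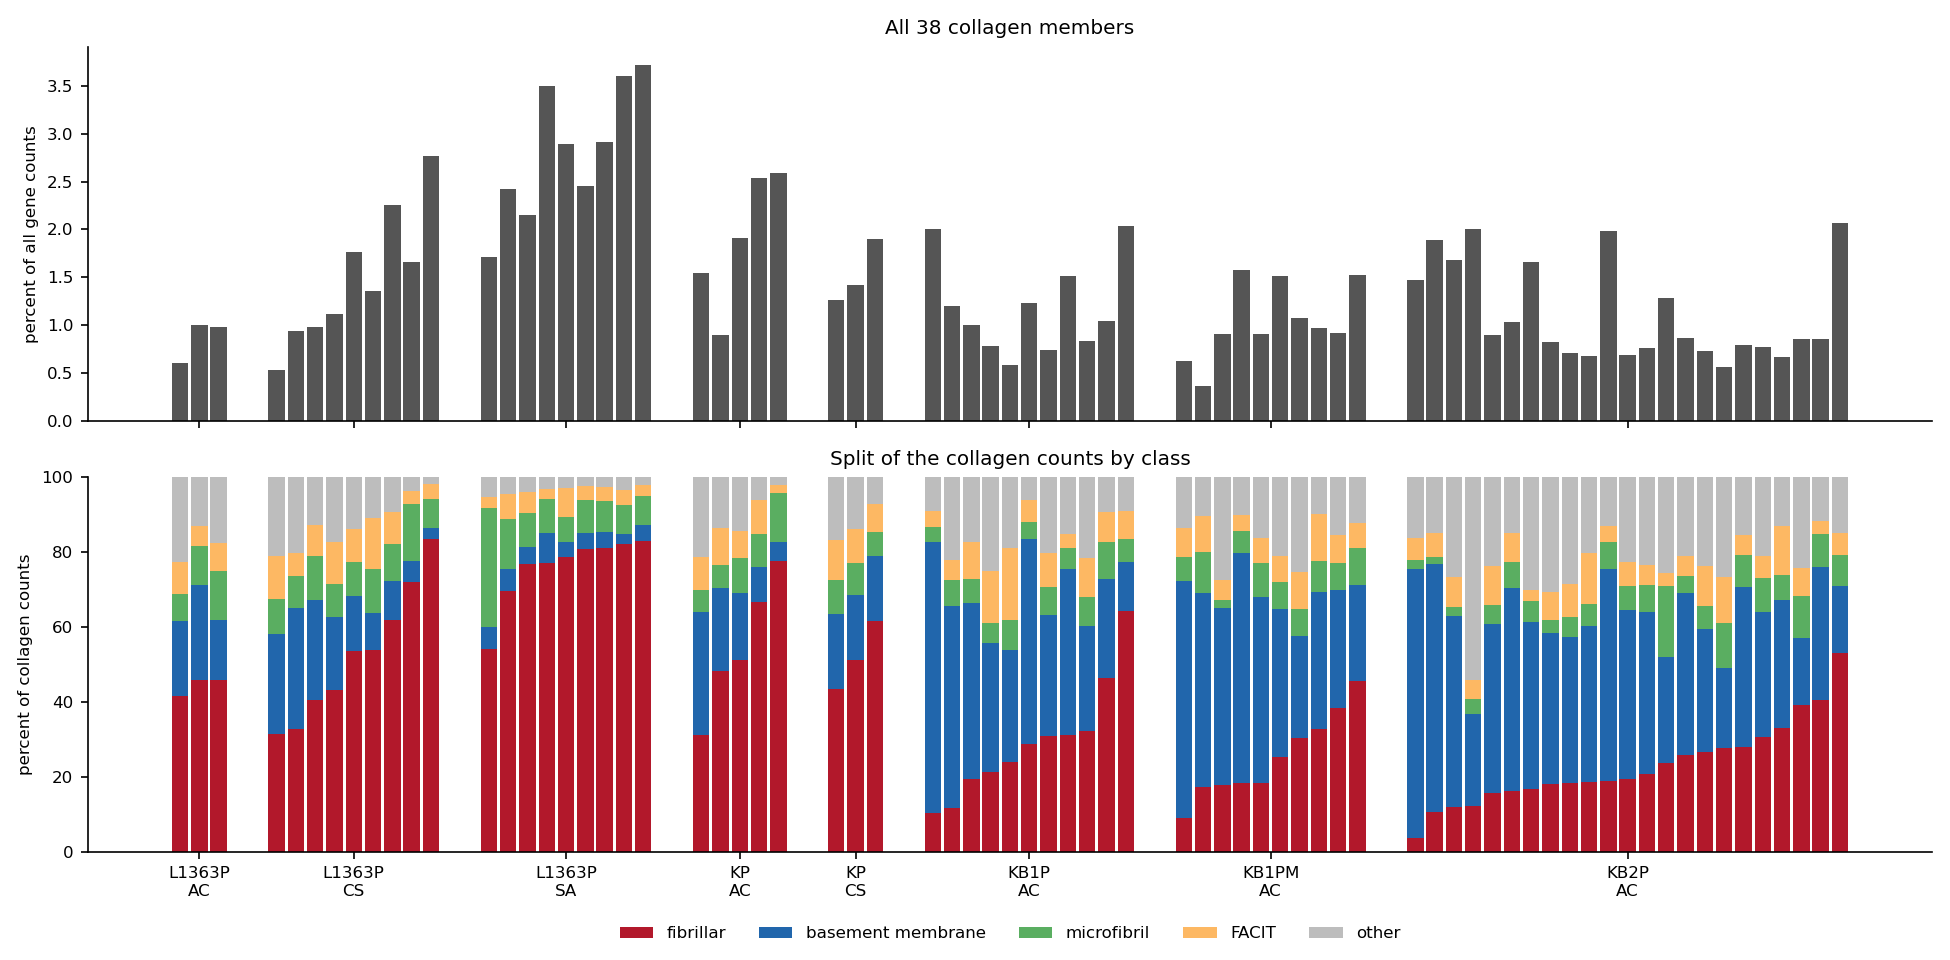
The upper bars give the 38 collagens as a percentage of all gene counts in each of the 73 tumours, and the lower bars split those collagen counts by class, with tumours ordered within each group by fibrillar share. Sarcomatoid (SA) bars run from 1.71% to 3.72% and are mostly fibrillar. Bars of other groups also lie within that range. Among them are L1363P carcinosarcomas 17 (2.77%) and 54.2 (2.25%) and KP adenocarcinomas 90.01A (2.59%) and 39 (2.54%). KP carcinosarcoma 5 (1.90%), KB1P tumour 9 (2.04%) and KB2P tumour 10 (2.07%) lie there too. KB1P, KB1PM and KB2P adenocarcinomas (AC) hold a larger basement membrane block than SA.

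Levels per kilobase of transcript allow genes to be set side by side. In KB2P adenocarcinomas Col4a1 led with a median of 296.7 CPM per kb, followed by its partner Col4a2 at 189.6. In L1363P adenocarcinomas Col1a2 led at 210.4, and Col1a1 at 174, Col4a1 at 172 and Col3a1 at 159 were close behind it within the spread of 3 tumours. In sarcomatoid tumours the order was Col1a2 at 1656, Col3a1 at 1157 and Col1a1 at 1092 CPM per kb, with Col4a1 at 123. The ends of the family were far apart, since Col19a1, a FACIT gene, never exceeded 0.568 CPM in any tumour. Col22a1, a FACIT gene of tissue junctions, stayed at or below 1.29 CPM outside KB2P.

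**Figure D2:**
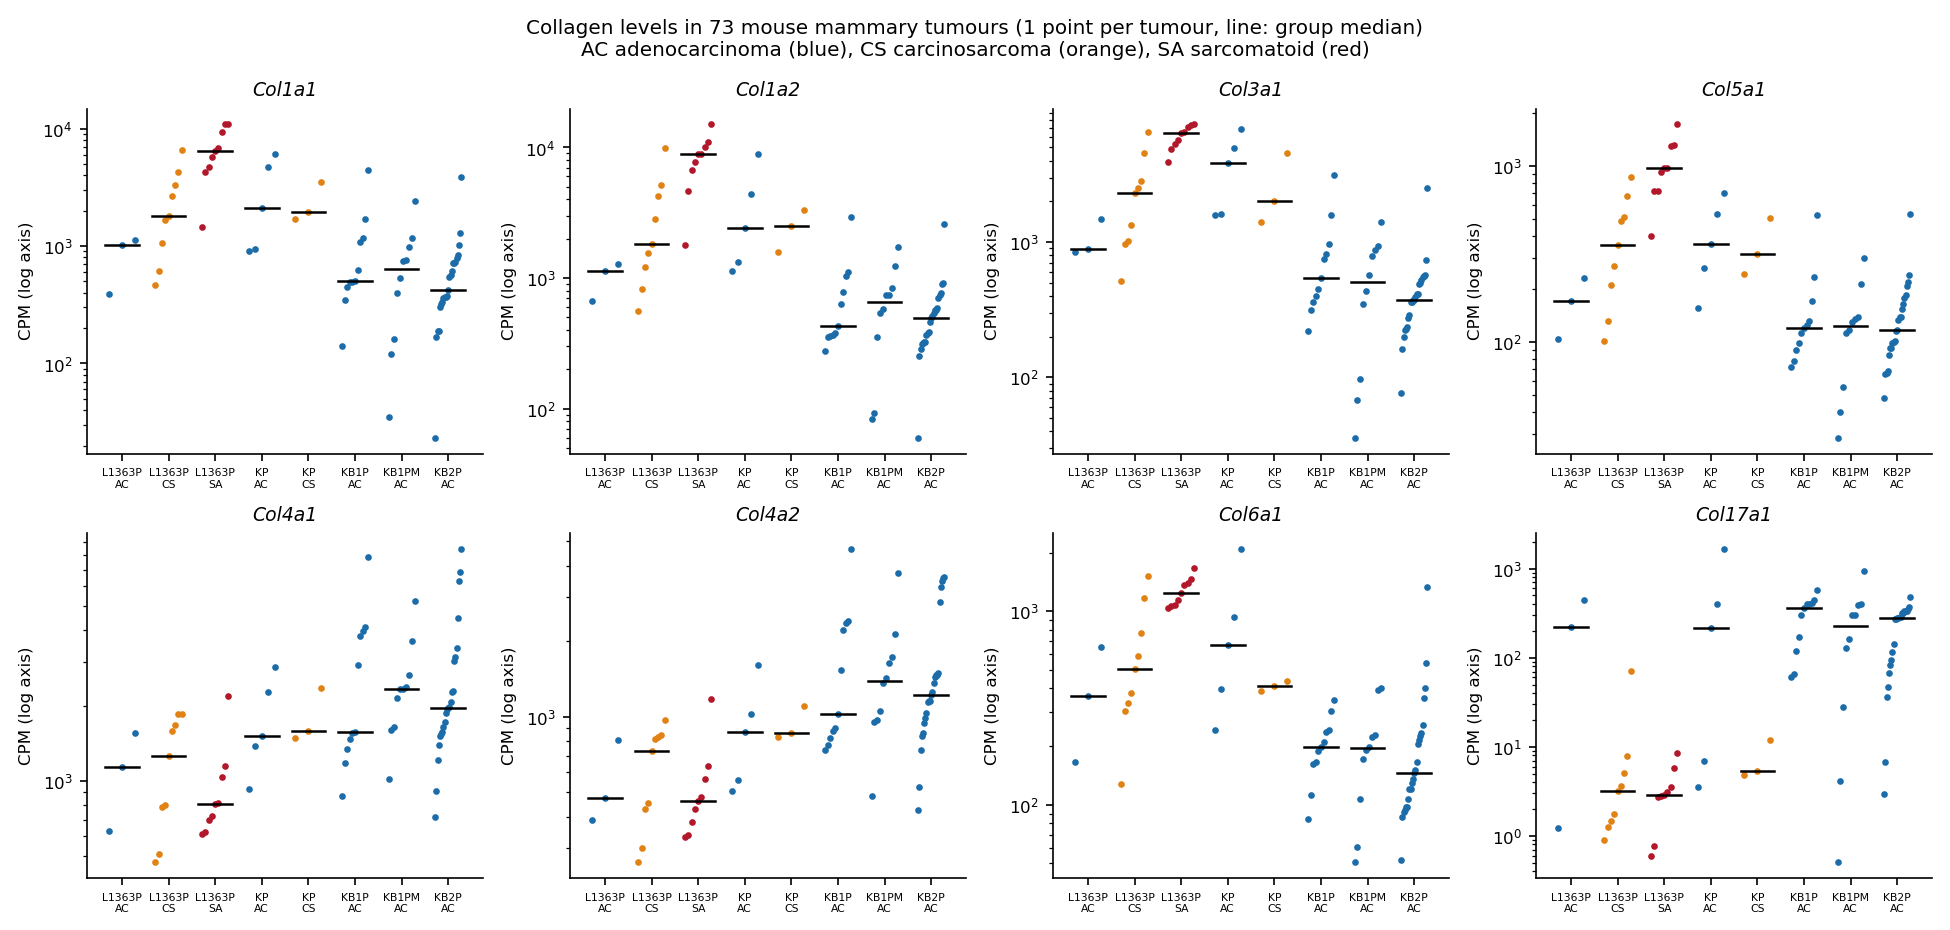
Each point is the CPM of a tumour on a log axis for 8 collagens, in 8 groups of adenocarcinoma (AC, blue), carcinosarcoma (CS, orange) and sarcomatoid tumour (SA, red), ordered by value within a group, with the group median as a line. The fibrillar genes and Col6a1 are high in the SA group, Col4a1 and Col4a2 are not, and Col17a1 spans 3 orders of size among adenocarcinomas.

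The 3 L1363P histologies were compared in a fit of all 29 libraries of run 5625 with edgeR's quasi-likelihood test, and every adjusted p below is the Benjamini-Hochberg value over all genes of the fit, with a threshold of 0.05. Of the 38 members, 36 passed the filter on low counts, and Col19a1 and Col22a1 did not. Between sarcomatoid tumours and adenocarcinomas, 12 of the 36 tested members were higher and 4 were lower. Over all 16147 genes tested, 12.1% were higher and 18.5% were lower. The median log2 fold change of the members was 0.74 and that of all genes was -0.09.

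Fibrillar chains made up most of the rise, with 7 of 9 higher, 1 lower and a class median of 2.58. Col1a1, the main chain of type I collagen, stood at 1031, 391 and 1133 CPM in adenocarcinomas 7.2, 26.2 and 52. In sarcomatoid tumours it was 1452 at the lowest, 6475 at the median and 10860 at the highest. All 9 sarcomatoid values lay above all 3 adenocarcinomas, and the log2 fold change was 2.99 (SE 0.79, edgeR adjusted p = 0.00689). Its partner chain Col1a2 moved by 3.03 (SE 0.81, adjusted p = 0.00754), from 664 to 1278 CPM in adenocarcinomas to a median of 8856. Col3a1, which encodes the fibrillar collagen of compliant tissues, had 1489, 851 and 884 CPM in adenocarcinomas and 3875 to 7395 in sarcomatoid tumours. Again no sarcomatoid value reached down to an adenocarcinoma, and the log2 fold change was 2.50 (SE 0.63, adjusted p = 0.00472).

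The type V chains, which start fibrils and limit their width, rose together. Col5a1 went from 169, 103 and 229 CPM to a sarcomatoid median of 965, with all 9 tumours above the 3 adenocarcinomas and a log2 fold change of 2.58 (SE 0.60, adjusted p = 0.00264). Col5a3 and Col5a2 had log2 fold changes of 2.66 (adjusted p = 0.00718) and 2.22 (adjusted p = 0.0168), each with 8 of 9 sarcomatoid tumours above every adenocarcinoma. Col24a1, a minor fibrillar chain of bone and cornea, was low throughout but separated the groups, at 0.454 to 4.39 CPM against 9.12 to 26.6 (log2 fold change 2.73, adjusted p = 0.0182). Col27a1, a fibrillar chain with a shorter helix, gave 1.74 (adjusted p = 0.0829), although its values did not overlap between groups. Col11a2, a minor chain usually found in cartilage, was the fibrillar member that fell, with a log2 fold change of -2.14 (SE 0.77, adjusted p = 0.0363). Adenocarcinoma 7.2, at 1.505 CPM of Col11a2, lay below all 9 sarcomatoid tumours. The Col11a2 result was lost under 9 of 18 alternatives, among them no filter, limma and leaving out adenocarcinoma 26.2 or 52.

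The type VI chains that form the common heterotrimer were higher. Col6a1 was 367, 167 and 654 CPM in adenocarcinomas and 1043 to 1674 in sarcomatoid tumours, without overlap (log2 fold change 1.69, SE 0.59, adjusted p = 0.0325). Col6a2 gave 1.77 (adjusted p = 0.0232), also without overlap, and Col6a3 gave 2.13 (adjusted p = 0.0239) with 8 of 9 tumours above. Sarcomatoid tumour 10 had 4079 CPM of Col6a3 against 1939 in the next. The alternative chains Col6a4, Col6a5 and Col6a6 did not pass the test. Col12a1, a FACIT chain of dense stroma, rose by 2.21 (adjusted p = 0.025), and Col8a1, a short-chain collagen of vessel walls, by 1.79 (adjusted p = 0.0228).

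Of the 5 basement membrane chains 0 passed the edgeR test, 0 had an unadjusted p under 0.05, and DESeq2 and limma called 0. Col4a1 was 1551, 631 and 1138 CPM in adenocarcinomas and 612 to 2187, with a median of 811, in sarcomatoid tumours. The groups overlapped, and the log2 fold change of -0.20 had a 95% interval of -1.02 to 0.63 (adjusted p = 0.746). Col4a2 gave -0.06 with an interval of -0.84 to 0.73 (adjusted p = 0.926). A change of either chain as large as that of Col1a1 lay outside these intervals.

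Outside these classes 3 members fell. Col17a1 encodes the membrane-spanning collagen of hemidesmosomes, which tie basal epithelial cells to the basement membrane. It was 223 and 441 CPM in adenocarcinomas 7.2 and 26.2 but 1.22 in adenocarcinoma 52, and 0.596 to 8.54 in sarcomatoid tumours. Tumour 52 therefore lay inside the sarcomatoid range, and the log2 fold change was -6.02 (SE 1.26, adjusted p = 0.00123). Col26a1, a little-studied chain, rested mostly on adenocarcinoma 26.2 at 18.5 CPM, since 7.2 and 52 had 0.723 and 0.472 (log2 fold change -5.72, adjusted p = 0.00404). Col28a1, a von Willebrand factor domain collagen known from nerve, gave -2.41 (adjusted p = 0.0155).

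**Figure D3:**
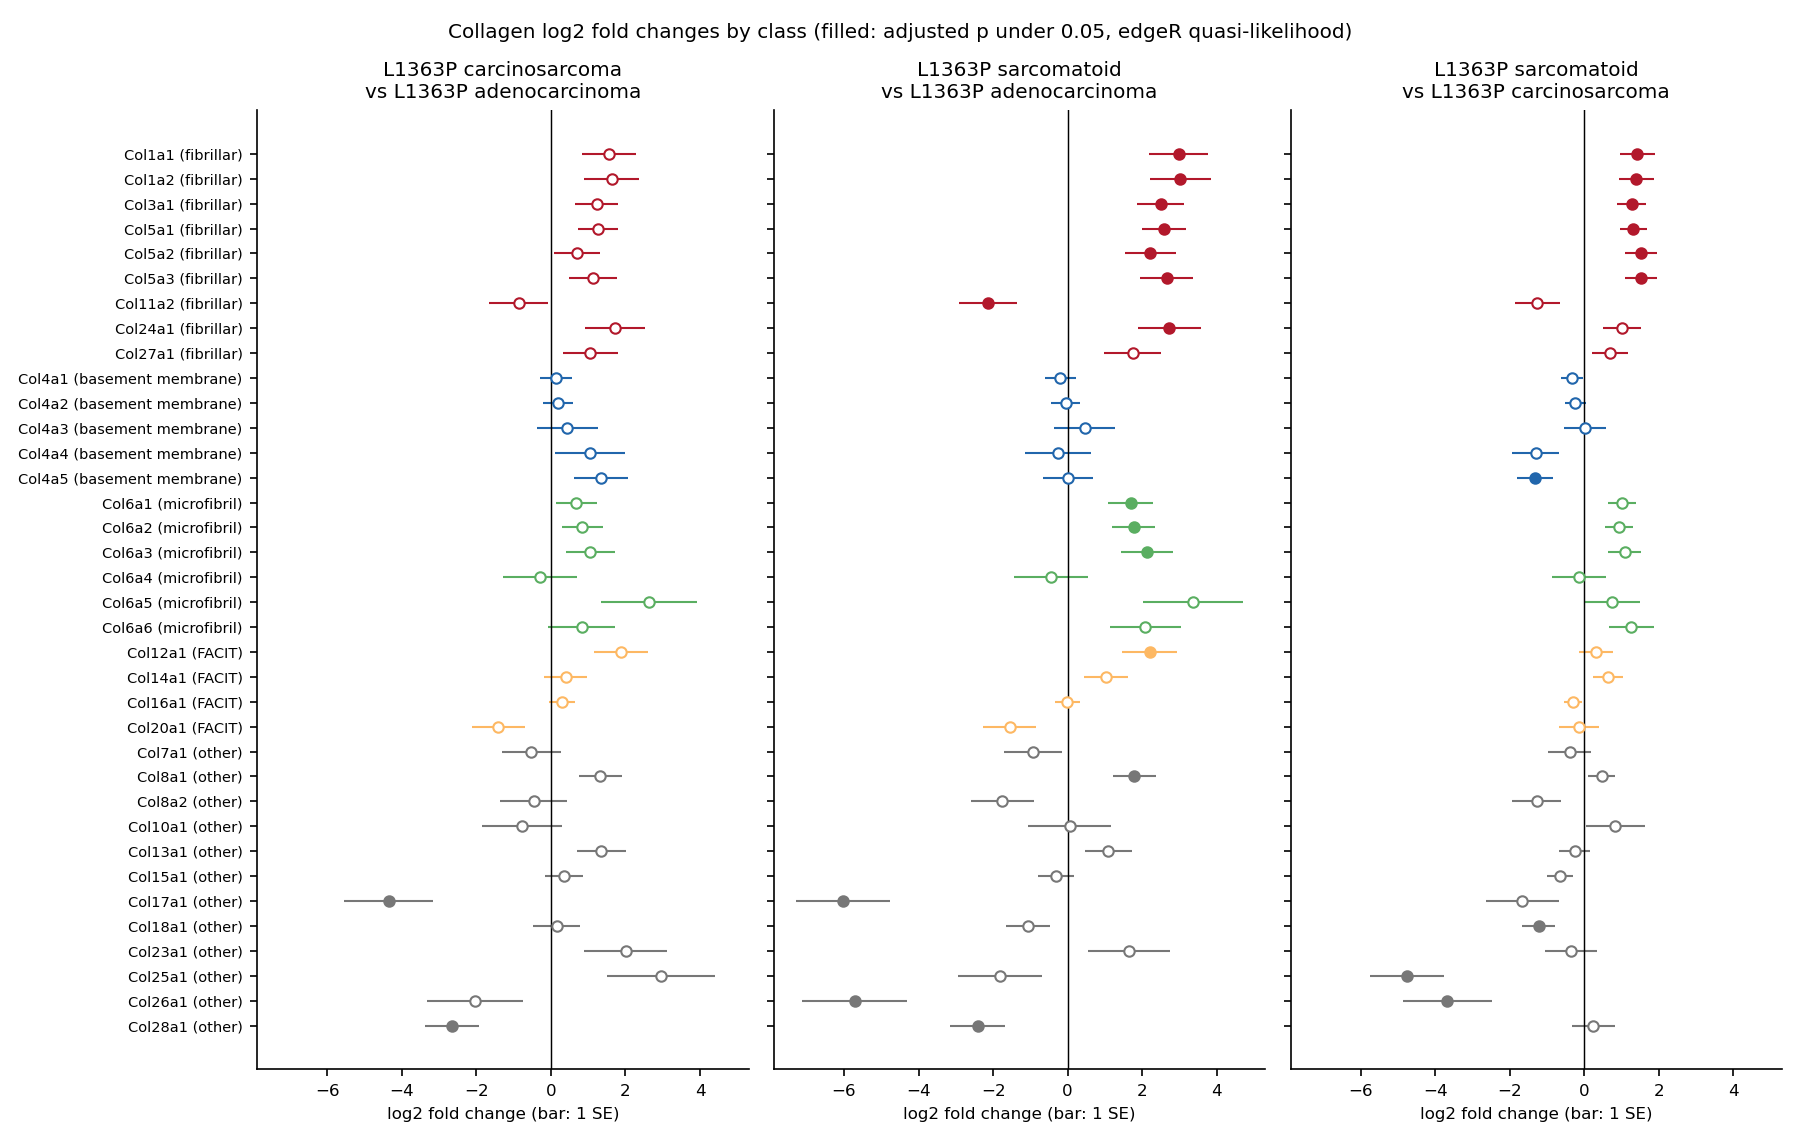
Points give the log2 fold change of each of the 36 tested members, with bars of 1 SE, for 3 comparisons of L1363P histologies, coloured by class and filled where the edgeR adjusted p was under 0.05. Against adenocarcinoma, 12 members of the sarcomatoid panel are filled to the right, 7 of them fibrillar, and the basement membrane points lie near 0.

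Genes that modify, cut, cross-link or bind collagen were followed as a list of 38. Of these 21 were higher in sarcomatoid tumours than in adenocarcinomas and 2 were lower, with a median log2 fold change of 1.54. Over all genes 12.1% were higher and 18.5% were lower. Among hydroxylases, which stabilise the helix and prepare it for cross-links, 6 of 10 rose, including Plod1 (1.52, adjusted p = 0.00113), P4ha3 (2.67), P3h1 (1.41), and the prolyl 3-hydroxylase P3h2 fell by 2.03. Serpinh1, the collagen chaperone of the endoplasmic reticulum, rose by 1.55 (SE 0.33, adjusted p = 0.00159), with Crtap (1.24) and Fkbp10 (1.87). Of the proteinases and enhancers that remove propeptides, Pcolce (3.17), Bmp1 (1.94), Adamts2 (1.53) and Adamts14 (2.21) were higher. Of the 5 lysyl oxidases, which cross-link fibrils, 4 were higher, led by Lox at 4.46 (SE 1.33, adjusted p = 0.0139). The receptors split, as Ddr2, which fibrillar collagen activates on mesenchymal cells, rose by 2.94 (adjusted p = 0.0151) and its epithelial relative Ddr1 fell by 2.35 (adjusted p = 0.000663). Mrc2 (2.98), Itgb1 (1.65) and Itga11 (2.28) were also higher.

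Cell markers moved in the same comparison, in which 12.1% of all genes were higher and 18.5% lower. All 6 epithelial markers were lower, 4 of 4 macrophage markers and 4 of 5 endothelial markers were higher, and 2 of 6 fibroblast markers, Dcn and Mfap5, were higher. Their summed fibroblast level was 95.6 to 503 CPM in adenocarcinomas and 903 to 3311 in sarcomatoid tumours, and the summed macrophage level 214 to 460 against 1117 to 2281. No marker of either list was at 0 in these groups. Their part in the collagen differences was not tested. The count of 16 called members was 10 without adenocarcinoma 7.2 and 4 without adenocarcinoma 26.2, and the members lost without 26.2 included Col1a1, Col1a2 and Col26a1. Col3a1, Col5a1 and Col17a1 passed under every alternative tried.

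Carcinosarcomas differed little from adenocarcinomas at this threshold. Of 36 tested members 0 were higher and 2 were lower, against 0.545% higher and 2.16% lower of all genes. Col17a1 was 0.899 to 71.4 CPM with a median of 3.21 in the 9 carcinosarcomas, so 2 of the 3 adenocarcinomas lay above all of them (log2 fold change -4.36, SE 1.202, edgeR adjusted p = 0.0464). Col28a1 fell by 2.65 (SE 0.73, adjusted p = 0.0466), from 0.903, 8.23 and 16.1 CPM to a median of 1.29. With KP adenocarcinoma 90.01A and carcinosarcomas 17 and 4 left out the count was 0. It was also 0 without adenocarcinoma 26.2, and without any single carcinosarcoma other than tumour 6, and 1 without adenocarcinoma 7.2 or 52. Each of the 2 results was lost under 14 of 18 alternatives.

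Stromal chains in carcinosarcomas did not pass the test but were spread widely. At an unadjusted p under 0.05, 8 members were positive and 2 negative, DESeq2 called 1 higher and 2 lower, and limma called 0. Here and below, unadjusted counts stand without the share of all genes at that cut, so they are not read as results about the members. Col12a1 had the next smallest p, with a log2 fold change of 1.89 (adjusted p = 0.145) and 7 of 9 carcinosarcomas above every adenocarcinoma. Col1a1 ran from 465 through 1814 to 6625 CPM and gave 1.56 (adjusted p = 0.221). Col1a2 gave 1.63 (adjusted p = 0.216), Col3a1 1.23 (adjusted p = 0.227) and Col6a1 0.68 (adjusted p = 0.495). Col4a1 at 0.13 and Col4a2 at 0.19 had 95% intervals of -0.71 to 0.97 and -0.61 to 0.98. In the processing list only Plod1, a lysyl hydroxylase, passed, at 1.25 (adjusted p = 0.0258), while Serpinh1 (0.72, adjusted p = 0.201), Lox (2.67, adjusted p = 0.207) and Ddr2 (1.14, adjusted p = 0.414) did not.

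Sarcomatoid tumours exceeded carcinosarcomas in the same fibrillar class. Here 6 of 36 tested members were higher, all fibrillar, and 4 were lower, against 7.45% higher and 14% lower of all genes. This comparison shares its sarcomatoid libraries with the one against adenocarcinoma. Col5a2 gave 1.52 (SE 0.43, adjusted p = 0.0146), Col5a3 1.52 (adjusted p = 0.0146), Col5a1 1.31 (adjusted p = 0.0126), and 6 or 7 of the 9 sarcomatoid tumours lay above every carcinosarcoma for each. Col3a1 gave 1.27 (SE 0.38, adjusted p = 0.0202), and 7 of 9 carcinosarcomas lay below every sarcomatoid tumour. Col1a1 gave 1.42 (adjusted p = 0.0317) and Col1a2 1.40 (adjusted p = 0.0391), with overlap at the high end, where carcinosarcoma 17 reached 6625 and 9927 CPM. Col6a1, at 1.00, had an adjusted p of 0.0586.

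The 4 members that were lower belong to other classes. Col25a1, a membrane-spanning collagen known from neurons, was 0.502 to 16.4 CPM in sarcomatoid tumours with a median of 1.63. In carcinosarcomas it ran from 0.518 through 96.7 to 324. Tumours 17 and 4 were the low ones, at 1.86 and 0.518, and the other 7 lay above all sarcomatoid tumours (log2 fold change -4.77, SE 1.00, adjusted p = 0.00191). Col26a1 gave -3.68 (adjusted p = 0.0296), Col4a5, a basement membrane chain, -1.32 (adjusted p = 0.0477) and Col18a1, the source of endostatin, -1.23 (adjusted p = 0.0484). Col26a1 was 9.10 CPM in carcinosarcoma 54.2 and at most 2.93 in the others, most of which lay within the sarcomatoid range of 0 to 0.315. Col17a1 gave -1.66 (adjusted p = 0.221), Col4a1 -0.32 (adjusted p = 0.453) and Col4a2 -0.24 (adjusted p = 0.563).

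Without carcinosarcomas 17 and 4 and KP adenocarcinoma 90.01A the count rose from 10 to 15 members, 8 higher and 7 lower. Leaving out single tumours gave 6 to 13, with 13 without carcinosarcoma 4 and 6 without carcinosarcoma 53, 54.1, 21.1 or 18 or sarcomatoid tumour 43. Col3a1, Col5a1, Col5a2, Col5a3 and Col25a1 passed each time, and Col18a1 was lost under 18 of 24 alternatives. Col1a2 and Col4a5 were each lost under 14 of 24 and Col1a1 under 8 of 24. Col26a1 was lost with limma and without carcinosarcoma 54.2. Over all genes 7.45% were higher and 14% lower in sarcomatoid tumours than in carcinosarcomas. In the processing list 8 were higher, among them Serpinh1 (0.83, adjusted p = 0.00923), P3h1 (1.04), Fkbp10 (1.16), Ddr2 (1.80), Mrc2 (1.195), Pcolce (1.34), Loxl1 (1.31) and Loxl2 (1.05). Lox gave 1.78 (adjusted p = 0.0774), and P3h2 (-3.82) and Ddr1 (-1.45) were lower. Markers moved in this comparison too, with 6 of 6 epithelial lower, 2 of 4 macrophage and 1 of 5 endothelial higher, and 0 of 6 fibroblast markers past the test. The summed level was 109 to 2411 CPM in carcinosarcomas and 903 to 3311 in sarcomatoid tumours for fibroblast markers, 302 to 2217 and 1117 to 2281 for macrophage markers, and 106 to 4022 and 62.8 to 432 for epithelial markers. Their part in the collagen differences was not tested.

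Carcinosarcomas also differed among themselves by labelled epithelial share. A slope per 10 percentage points of epithelium was fitted over the 9 L1363P carcinosarcomas, with 35 members tested, since Col4a3 was also below the filter. Along that share 4 members rose and 2 fell, against 2.59% rising and 5.76% falling of all 14645 genes tested. Col4a2 rose by 0.17 per 10 points (SE 0.04, edgeR adjusted p = 0.0252) and Col4a1 by 0.19 (SE 0.04, adjusted p = 0.0289). Col4a1 was 510 and 473 CPM in tumours 4 and 17 and 1263 to 1855 in 5 of the 6 tumours labelled at least 75%. Tumour 53, labelled 85%, was the exception at 785 CPM. Col18a1, a basement membrane proteoglycan, rose by 0.26 (adjusted p = 0.0285) and Col10a1, a short-chain network collagen, by 0.43 (adjusted p = 0.0335).

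The microfibril chains Col6a1 and Col6a2 went the other way. As 2 of 35 tested members they were no larger a share than that of all genes falling. Col6a3, the third chain of the common heterotrimer, did not pass. It was 159.5 and 470.9 CPM in tumours 4 and 17, against 201.6 to 1114 in the others. Col6a1 fell by 0.21 per 10 points (SE 0.05, adjusted p = 0.0373) and Col6a2 by 0.22 (SE 0.05, adjusted p = 0.0347). Tumours 4 and 17 had 1518 and 1168 CPM of Col6a1, above the 128 to 776 of the other 7. Col1a2 had a slope of -0.25 (adjusted p = 0.0686), Col1a1 of -0.19 (adjusted p = 0.17) and Col3a1 of -0.18 (adjusted p = 0.204), and none of these passed. Col17a1 had a slope of 0.42 (adjusted p = 0.139). Over all genes 2.59% rose and 5.76% fell. In the processing list 6 of 37 fell, including P4ha2 (-0.25), Lox (-0.42, adjusted p = 0.0078), Loxl1 (-0.32), Pcolce (-0.30), Itga11 (-0.25) and Mrc2 (-0.22), and none rose. Ddr2 had -0.26 (adjusted p = 0.0593) and Serpinh1 -0.10 (adjusted p = 0.133).

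**Figure D4:**
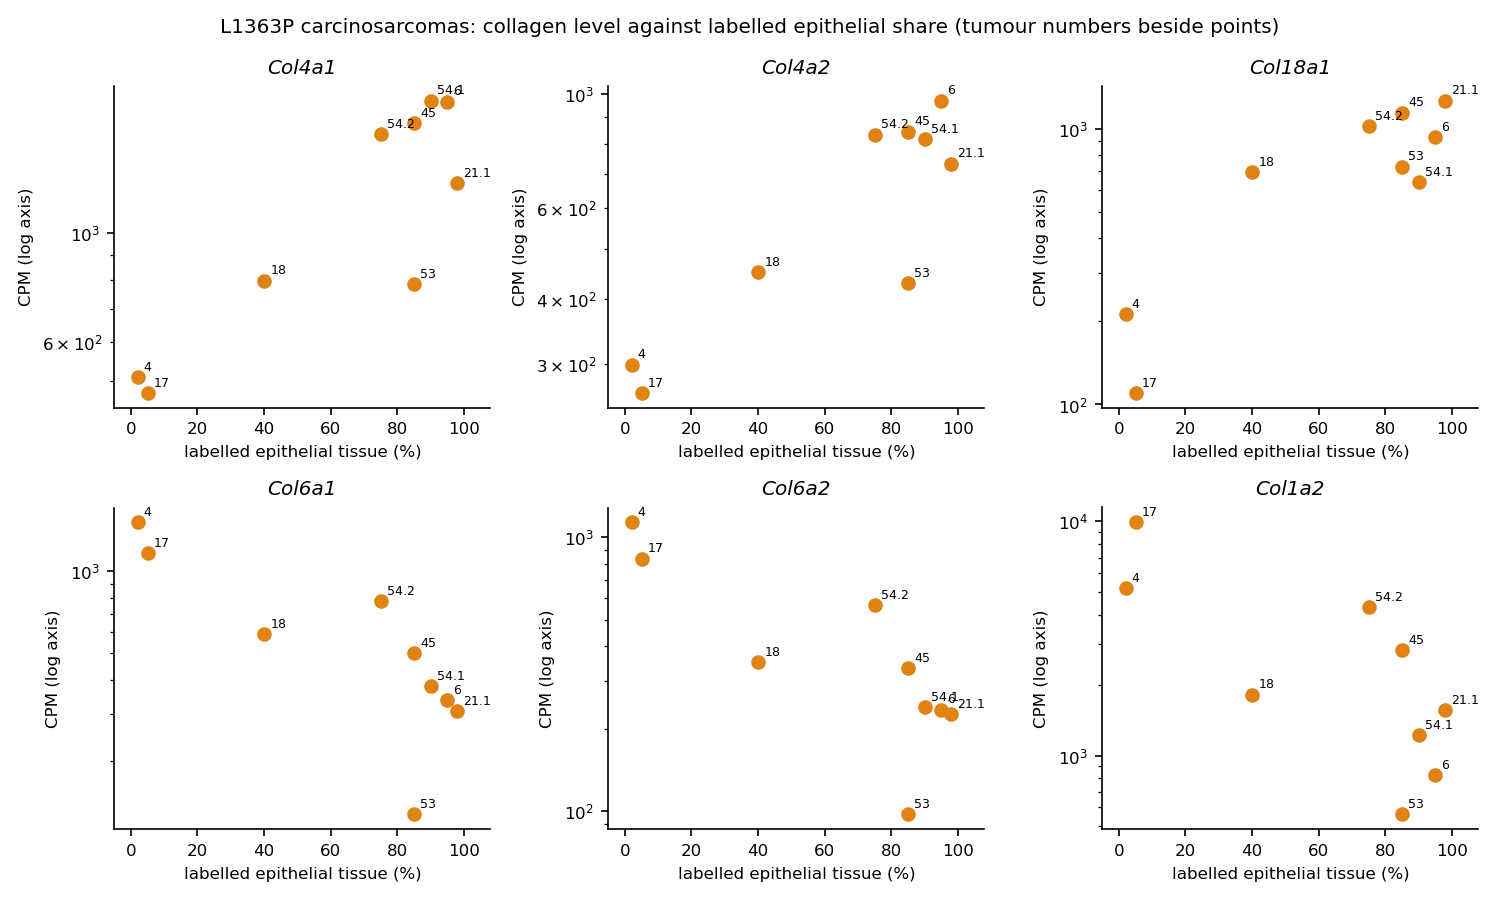
Each point is an L1363P carcinosarcoma, with its labelled epithelial percentage on the x axis and the CPM of a collagen on a log y axis. Tumours 4 and 17, at 2% and 5%, are the lowest for Col4a1, Col4a2 and Col18a1 and the highest for Col6a1, Col6a2 and Col1a2.

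The calls depend on the ends of the scale. The count of 6 members fell to 0 without tumour 17, to 0 without tumour 4, and to 0 without both, whereas it was 2 without tumour 54.1, 3 without tumour 21.1 and 10 without tumour 6. DESeq2 called 16. Without tumours 17 and 4 the slope was 0.17 for Col4a1, 0.14 for Col4a2, 0.38 for Col10a1, -0.19 for Col6a1 and -0.16 for Col6a2, while that of Col18a1 shrank to 0.09. In that fit tumour 18, labelled 40%, was the only tumour labelled under 75%, so it alone made up the low end of the scale. Tumour 6, low in Epcam but the highest of these tumours in Krt5, entered at its label of 95%. Of 6 fibroblast markers Pdgfra and Dcn fell along the same scale, as did all 4 macrophage markers. Of 6 pericyte and smooth muscle markers Cspg4, Rgs5 and Notch3 rose. Over all genes 2.59% rose and 5.76% fell. The fibroblast list and the pericyte and smooth muscle list did not move as a whole. Fap, a fibroblast marker, was 3.56 and 8.17 CPM in tumours 4 and 17, against 6.98 to 38.6 in the others. Acta2, a smooth muscle marker, was 288.5 and 328.3 CPM there, within the 49.2 to 695.9 of the others. The part of these cells in the slopes was not tested.

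In KP tumours no collagen passed the test between carcinosarcoma and adenocarcinoma, where 0% of all genes were higher and 0% lower. The edgeR fit gave 0 positive and 6 negative members at an unadjusted p under 0.05, DESeq2 called 3 lower and limma 0. Col17a1 had the smallest p. It was 1671, 3.53, 216, 7.01 and 399 CPM in adenocarcinomas 89.01A, 90.01A, 131.03A, 39 and 40, and 4.86, 5.30 and 11.8 in the 3 carcinosarcomas. Adenocarcinomas 89.01A, 131.03A and 40 lay above the carcinosarcoma range, and the other 2 within or below it, giving a log2 fold change of -5.99 (SE 1.95, adjusted p = 0.337). Col6a4, an alternative type VI chain, gave -4.04 and Col26a1 -6.09, both with an adjusted p of 0.344. Adenocarcinoma 40 alone had 13.8 CPM of Col6a4, against 0.208 to 0.855 in the other adenocarcinomas.

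The main stromal chains of KP tumours overlapped between histologies. Col1a1 was 915, 6090, 948, 4751 and 2090 CPM in adenocarcinomas and 1707, 1945 and 3535 in carcinosarcomas, a log2 difference of -0.31 (95% interval -1.72 to 1.10, adjusted p = 0.892). Col1a2 gave -0.55 (-2.01 to 0.91), Col3a1 -0.51 (-1.67 to 0.66) and Col6a1 -1.08 (-2.27 to 0.11). Col4a1 and Col4a2 both gave 0.01, with intervals of -0.91 to 0.92 and -0.85 to 0.88. With 90.01A, 17 and 4 left out, the count was still 0. Serpinh1 (-0.13), Lox (-1.30) and Ddr2 (-0.01) did not pass either. Adenocarcinoma 90.01A had 2221 CPM of Lox, against 73.2 to 310.7 in the other adenocarcinomas and 191.6 to 294.2 in carcinosarcomas. Its Col6a1 was 2103 CPM, against 243 to 933.5 in the other adenocarcinomas.

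The carcinosarcoma difference was then compared between genotypes. For the difference of the effect in L1363P minus that in KP, 0% of all genes were higher and 0.0124% were lower, and 0 members passed. At an unadjusted p under 0.05, 8 members were positive and 1 negative, while DESeq2 and limma called 0. Col4a4 had the smallest p at 3.70 (SE 1.42, adjusted p = 0.246), then Col4a3 at 3.07 and Col6a4 at 3.75, chains whose median was at most 1.31 CPM in each of the groups compared. A single KP adenocarcinoma stood apart for Col4a4 (89.01A at 26.7 CPM) and for Col6a4 (40 at 13.8 CPM). Among the main chains the difference was 2.18 for Col1a2, 1.87 for Col1a1, 1.73 for Col3a1, 1.76 for Col6a1 and 1.63 for Col17a1, with adjusted p from 0.316 to 0.741. It was 0.12 for Col4a1 and 0.17 for Col4a2. In the processing list 0 of 38 passed, 11 had an unadjusted p under 0.05, and DESeq2 and limma called 0. Serpinh1 gave 0.85, Lox 3.98 and Ddr2 1.15. These sizes include KP adenocarcinoma 90.01A, the library that lacked Epcam, at 8914 CPM of Col1a2, 2103 of Col6a1 and 2221 of Lox. The other KP adenocarcinomas had at most 4404, 933.5 and 310.7 CPM. Sizes without 90.01A are not given here.

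Among adenocarcinomas of run 5625, L1363P and KP tumours did not differ in any collagen at the threshold. The background was 0.142% of genes higher in L1363P and 0.0681% lower. At an unadjusted p under 0.05 edgeR had 1 positive and 14 negative members, and DESeq2 and limma called 0. The background given is for adjusted p, and the share of all genes at the unadjusted cut is not given here. Col4a4, a chain of the kidney type basement membrane, had the smallest p at -3.36 (SE 1.11, adjusted p = 0.175), but KP adenocarcinoma 89.01A alone had 26.7 CPM, against at most 1.24 in the other 4. Col3a1 gave -1.82 (SE 0.63, adjusted p = 0.19). Its KP values were 1616, 4964, 1574, 6795 and 3849 CPM, all above the 3 L1363P adenocarcinomas. Col8a1 gave -1.53 (adjusted p = 0.24), Col1a1 -1.80 (adjusted p = 0.262) and Col1a2 -1.83 (adjusted p = 0.265). Col6a1 (-1.13), Col4a1 (-0.71), Col4a2 (-0.73) and Col17a1 (-1.07) had adjusted p from 0.359 to 0.767. Serpinh1 (-0.80), Lox (-2.50) and Ddr2 (-1.30) did not pass. Lox was 2221 CPM in KP adenocarcinoma 90.01A and 73.2 to 310.7 in the other KP adenocarcinomas.

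Adenocarcinomas of KB1P and KB2P were compared in a fit of all 73 libraries, with 37 members above the filter and only Col19a1 below it. In KB1P, 0 members were higher and 8 were lower, against 5.38% higher and 7.81% lower of 18492 genes. The 8 were 3 microfibril, 2 FACIT, 1 fibrillar and 2 membrane-spanning chains, none of them among the abundant collagens. The medians of the members and of all genes were both -0.04 on the log2 scale.

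Of the type VI chains outside the common heterotrimer, Col6a4 had the clearest values. Col6a4 was 0 to 6.80 CPM in the 21 KB1P and KB1PM tumours with a median of 0.975. In KB2P it ran from 0.247 through 5.19 to 93.3, and 9 of 23 tumours lay above every KB1P tumour (log2 fold change -3.05, SE 0.57, adjusted p = 9.09e-05). Col6a5 gave -3.19 (adjusted p = 0.00994), but KB2P tumour 17 had 337.8 CPM against 25.8 in the next, and without tumour 17 it no longer passed. Col6a6 gave -1.81 (adjusted p = 0.0169) with KB1P and KB2P medians of 0.352 and 0.371, and was lost without KB2P tumour 21 or 23. Col6a1 itself gave -0.19 with a 95% interval of -0.74 to 0.35 (adjusted p = 0.703).

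Col27a1 was the fibrillar member that was lower. Its KB1P and KB1PM values ran from 3.39 to 81.3 CPM, with a median of 21.8, and KB2P values from 5.06 through 37.7 to 547.6, with 5 KB2P tumours above all KB1P tumours (log2 fold change -1.51, SE 0.37, adjusted p = 0.00305). Its titles differed within KB1P, at medians of 11.9 for KB1P and 28.9 for KB1PM. Col20a1, a FACIT chain, gave -1.27 (adjusted p = 0.0189) with medians of 9.65 and 23.3, and was lost without KB2P tumour 34. Col22a1 gave -2.05 (adjusted p = 0.0202) from values of at most 5.35 CPM, and was lost without KB2P tumour 18 or 46.

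The membrane-spanning chains had a few very high KB2P tumours. Col13a1, a collagen of cell junctions, was 241.3, 182 and 149.6 CPM in KB2P tumours 21, 23 and 31 and at most 18.2 in the other 20 (log2 fold change -1.97, adjusted p = 0.0194). Its medians were 2.60 CPM in KB1P and KB1PM together and 4.18 in KB2P, and KB1PM tumour 8 was also high, at 76.9 CPM. Col23a1 was 171.5, 92.81, 60.95 and 48.56 CPM in KB2P tumours 23, 36, 31 and 21 (log2 fold change -1.80, adjusted p = 0.0443). The highest KB1P value of Col23a1 was 32.48 CPM, in tumour 1. The KB1P median of Col23a1, 2.82 CPM, was above the KB2P median of 2.19, so the fitted direction is opposite to that of the medians. Col13a1 was lost without tumour 21 or 23 and Col23a1 without any of the 4, among 23 of 52 alternatives.

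**Figure D5:**
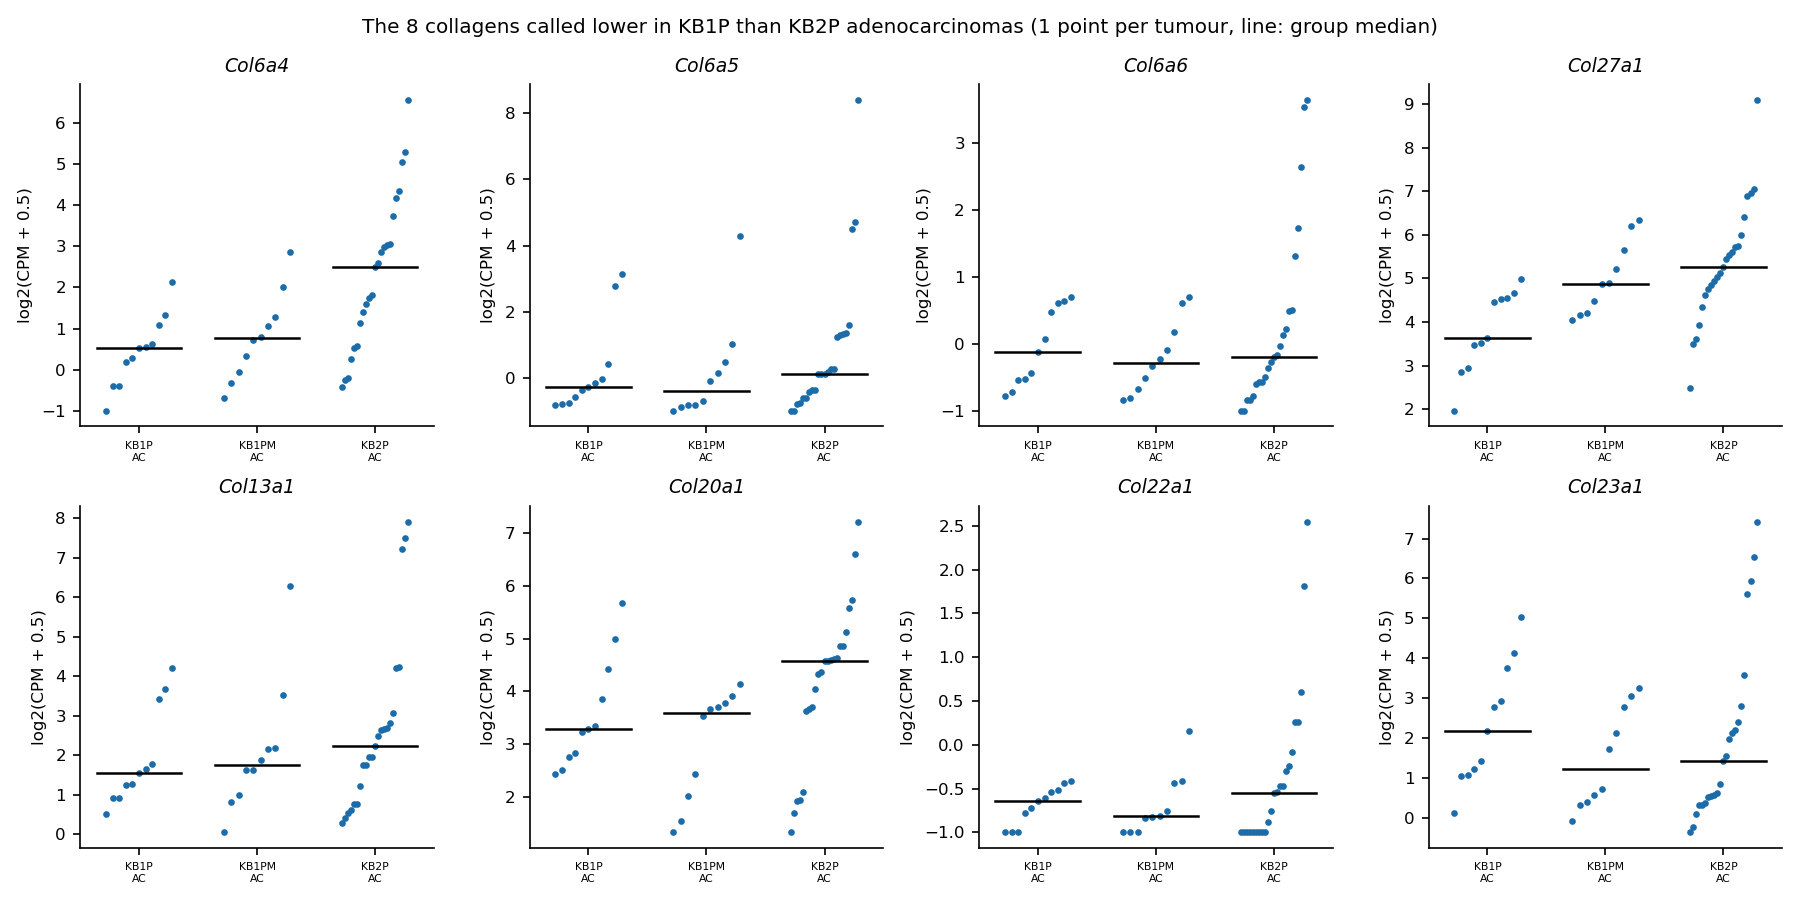
Each point is log2(CPM + 0.5) in a KB1P, KB1PM or KB2P adenocarcinoma, ordered by value, with group medians as lines, for the 8 collagens that were lower in KB1P. The KB2P median lies above both others except for Col6a6 and Col23a1. The highest point of Col6a5 is a KB2P tumour far above the rest. For Col13a1 and Col23a1 the highest points are also KB2P tumours, but KB1PM tumour 8 (76.9 CPM) and KB1P tumour 1 (32.48 CPM) come next.

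Leaving out each of the 44 tumours in turn gave 5 to 12 members, with 5 without KB2P tumour 21. Col6a4 and Col27a1 passed after every single omission. The count was 8 without KB2P tumour 30, which lacked epithelial markers, and 9 without KB1PM tumour 8. The abundant chains did not pass: Col1a1 (0.41, adjusted p = 0.51), Col1a2 (0.35, adjusted p = 0.518), Col3a1 (0.56, adjusted p = 0.252), Col17a1 (0.35, adjusted p = 0.709), Col4a1 (-0.04, 95% interval -0.51 to 0.44) and Col4a2 (0.02, interval -0.43 to 0.48). In the processing list Itga1 (1.02, adjusted p = 0.00233) and Loxl4 (1.60, adjusted p = 0.0386) were higher, Itga10 (-1.18, adjusted p = 0.000664) was lower, and Serpinh1 (-0.27), Lox (0.92) and Ddr2 (-0.08) did not pass.

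Because KB1P and KB2P share no run, 2 runs within KB2P served as a yardstick. Between 12 tumours of run 2749 and 9 of run 2459, 0 of 32 members passed, with 0.262% higher and 0.413% lower of all genes. The members below the filter there were Col24a1, Col4a3, Col6a5, Col6a6, Col19a1 and Col22a1. At an unadjusted p under 0.05 there were 3 positive and 4 negative members, DESeq2 called 3 higher and limma 0. Col23a1 and Col13a1 had the smallest p, at 3.36 (adjusted p = 0.0858) and 3.52 (adjusted p = 0.0884), larger in size than their difference between KB1P and KB2P. Col28a1 followed at -2.40 (adjusted p = 0.119). Among the main chains Col1a1 gave -1.33 (adjusted p = 0.15), Col1a2 -0.81, Col3a1 -0.93, Col4a1 0.65, Col4a2 0.26, Col6a1 0.19 and Col17a1 -0.20. Serpinh1 (0.23), Lox (-1.12) and Ddr2 (1.61) did not pass.

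L1363P adenocarcinomas were also set against KB1P and KB2P adenocarcinomas, where run and genotype cannot be told apart. Against KB1P, 0 of 37 members passed, with 2.65% higher and 2.35% lower of all genes. At an unadjusted p under 0.05 there were 0 positive and 2 negative members, DESeq2 called 1 lower and limma 0. The smallest p belonged to Col4a2 (-1.53, SE 0.54, adjusted p = 0.091), Col4a1 (-1.25, SE 0.55, adjusted p = 0.208) and Col6a1 (0.96, adjusted p = 0.345). Of the 21 KB1P tumours 18 had more Col4a2 than any L1363P adenocarcinoma. Col1a1 (-0.04), Col1a2 (0.47), Col3a1 (0.63) and Col17a1 (-0.36) had adjusted p from 0.649 to 0.989. Serpinh1 (-0.43), Lox (0.93) and Ddr2 (-0.11) did not pass.

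Against KB2P, 0 of 37 members passed, with 4.41% higher and 4.69% lower of all genes. Unadjusted, 3 were positive and 9 negative, DESeq2 called 4 lower and limma 0. Col4a2 again had the smallest p (-1.50, SE 0.54, adjusted p = 0.0656), with 20 of 23 KB2P tumours above all 3 L1363P adenocarcinomas. Col6a4 gave -3.97 (adjusted p = 0.0746) and Col13a1 -4.27 (adjusted p = 0.092). Col4a1 gave -1.29 (adjusted p = 0.134), Col3a1 1.19 (adjusted p = 0.196), Col6a1 0.76, Col1a2 0.81 and Col1a1 0.37, and Col17a1 had a 95% interval of -2.08 to 2.07. The lysyl hydroxylase Plod1 was the processing gene that passed, at -1.49 (adjusted p = 0.0101), whereas Serpinh1 (-0.71), Lox (1.85) and Ddr2 (-0.20) did not.

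Some members are neighbours in the genome, and their levels across the 23 KB2P tumours were compared. Col4a1 and Col4a2 lie head to head on chromosome 8, and their annotated exons share 22 bases on opposite strands. Their log levels had Pearson's r = 0.937 and Spearman's rho = 0.935, and r was 0.926 without the 2 tumours farthest from the Col4a1 median. Within runs r was 0.977 over 12 tumours and 0.819 over 9. Col6a2 and Col6a1, on the same strand of chromosome 10 and 85161 bases apart, had r = 0.959 and rho = 0.961, with 0.971 and 0.928 within runs. Both pairs reached the smallest p that 100000 permutations give, 1e-05, or 3e-05 after adjustment over the 6 relations computed.

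The other 4 pairs were looser. Col4a4 and Col4a3, head to head with 71 bases between them, had r = 0.697 (permutation test, adjusted p = 0.0019), or 0.463 without the outer tumours. Col3a1 and Col5a2, tail to tail, had r = 0.611 (permutation test, adjusted p = 0.0029), or 0.434 without them. Col6a6 and Col6a5 had r = 0.427, and Col6a5 and Col6a4 had r = 0.083 (permutation test, adjusted p = 0.71), although the latter are 28810 bases apart. The points of each pair share library, depth and tissue make-up.

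The windows below are the 150 bases before the RefSeq start of Col4a1 and Col4a2, which varied together, of Col1a2 and Col5a1, which were higher in sarcomatoid tumours, and of Col17a1, which was lower. They are written 5′ to 3′ in the sense of each gene, from build GRCm38.p6, at chr8:11312827-11312976 (minus strand), chr8:11312655-11312804 (plus), chr6:4505468-4505617 (plus), chr2:27886275-27886424 (plus) and chr19:47692043-47692192 (minus). Capitals mark the motif CCAAT, the motif GGGCGG and the motif TATAAA, each on either strand, and no motif contains another.

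Col4a1: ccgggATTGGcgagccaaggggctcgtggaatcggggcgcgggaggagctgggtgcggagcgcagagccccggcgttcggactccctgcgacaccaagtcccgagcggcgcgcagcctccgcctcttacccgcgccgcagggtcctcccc

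Col4a2: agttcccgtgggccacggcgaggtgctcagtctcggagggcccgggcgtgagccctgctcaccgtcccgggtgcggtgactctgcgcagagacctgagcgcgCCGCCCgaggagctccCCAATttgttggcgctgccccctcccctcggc

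Col1a2: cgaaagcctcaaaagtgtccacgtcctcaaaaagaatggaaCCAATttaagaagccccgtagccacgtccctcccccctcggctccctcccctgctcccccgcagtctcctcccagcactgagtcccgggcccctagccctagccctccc

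Col5a1: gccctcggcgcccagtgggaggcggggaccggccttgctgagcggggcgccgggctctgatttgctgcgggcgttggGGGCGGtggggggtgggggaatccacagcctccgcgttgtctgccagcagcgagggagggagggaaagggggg

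Col17a1: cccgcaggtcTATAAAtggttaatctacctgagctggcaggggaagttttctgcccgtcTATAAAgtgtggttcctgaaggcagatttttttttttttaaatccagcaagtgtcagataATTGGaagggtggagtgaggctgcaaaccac

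Windows were found for 31 of the 38 members. CCAAT occurred in those of 6 members and in 24.5% of the 32851 windows of all genes, GGGCGG in 16 members and 28.6%, and TATAAA in 4 members and 7.57%. Each match is a description of letters, and none was tested against the levels.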

How the data were processed

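The authors deposited whole-number counts per gene symbol and a log2 table. Per the labels' protocols, total RNA was extracted with TRIzol and made into stranded poly(A) libraries. Per the submitters' processing notes, cutadapt 2.10, STAR 2.7.3a, featureCounts 2.0.0 and DESeq were used with build mm10. For the strand setting of the counting, the sources used here give nothing. The deposited log2 values served only for an alternative with limma 3.58.1.

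Counts were tested as deposited with edgeR 4.0.16 in R 4.3.3 (TMM scaling, a low-count filter, quasi-likelihood test), with Benjamini-Hochberg adjustment over all genes of a fit. DESeq2 1.42.0, RLE factors, no filter, groups compared alone and leaving out libraries were alternatives. Scripts were tested on simulated data. Levels are CPM, scaled over all libraries. Intervals at 95% are the estimate plus or minus a normal quantile times the SE. The depth of 7325180 to 31615237 counts limits rare chains most.

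Groups came from the genotype and histology labels. In each comparison Col1a1, Col1a2, Col3a1, Col4a1, Col4a2, Col6a1 and Col17a1 were named, with every called member up to 12 per direction, and with the 3 smallest p where at most 3 were called. From the processing list the rule took Serpinh1, Lox, Ddr2 and up to 4 called genes per role. Other genes named were chosen after their values were seen. The members and lists were chosen with earlier results of these data known. Date-converted symbols, 0.169% of counts, were not used. Promoter windows are from RefSeq, GRCm38.p6. Motifs were searched on both strands. Without known strand, reads in exons shared with another gene, as in Col4a1 with Col4a2, Col3a1, Col5a1, Col20a1, Col6a4 and Col6a6, cannot be told apart.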

Additional observations from a re-analysis of the deposited data

Results flagged for a closer look

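In 10 of 127 sets of values, each a member within a group of 4 to 10 tumours, the highest or lowest tumour stood apart from the rest by more than Dixon's 95% limit. Chance alone sets apart about 1 in 20 such sets.

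Among sarcomatoid tumours, tumour 10 was low for Col1a1 (1452 CPM, next 4308) and Col5a3 (69.8 CPM, next 263.7), and tumour 29 was high for Col4a1 (2187 CPM, next 1151). Among L1363P carcinosarcomas, tumour 4 was low for Col16a1, a FACIT chain, at 149.6 CPM (next 311.6), and tumour 6 was high for Col17a1 at 71.4 CPM (next 7.98). KP adenocarcinoma 90.01A, the library that lacked Epcam, was low for Col8a2, a short-chain collagen, at 4.43 CPM (next 28.1), and for Col25a1 at 0.976 CPM (next 26.1). In KB1PM, tumour 9 was high for Col4a4 (10.7 CPM, next 1.504), tumour 6 was high for Col28a1 (106.6 CPM, next 5.46), and tumour 8 was low for Col6a3 (19.04 CPM, next 252.9).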

How the results depend on the processing

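Of 42 single-gene results past the threshold, checked 1055 times under alternatives, 861 checks kept the result, 190 lost it and 4 reversed it. Settings without carcinosarcomas 17 and 4 and 90.01A, and without 54.2, were chosen after seeing the data. A further 69 fits, which left out single tumours of the larger groups, were also added after the data were seen. So was the fit of tumours with shared replicate numbers and no block. Leaving out 1 tumour gave 4 to 16 members for sarcomatoid against adenocarcinoma, 0 to 2 for carcinosarcoma against adenocarcinoma, 6 to 13 for sarcomatoid against carcinosarcoma, 0 to 10 for the epithelial slope and 5 to 12 for KB1P against KB2P. It gave 0 each time for the KP histologies, the genotype difference of effects and L1363P against KP. For L1363P against KB1P or KB2P only the 3 L1363P adenocarcinomas were left out in turn, with 0 each time. For carcinosarcoma against adenocarcinoma the count was 0 with no filter, with limma, with the groups alone, without 17, 4 and 90.01A, and without 54.2. DESeq2 called 3 for the KP histologies, 16 for the slope, 1 and 4 for L1363P against KB1P and KB2P, and 3 between runs. The slope count was 0 without 17 and 4. For KB1P against KB2P, limma called 2, the groups alone gave 5 and KB1P-titled tumours alone 4. The cause was not tested.

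KB1P and KB2P share 5 replicate numbers, which nothing in the labels ties to a shared source. A fit of those 10 tumours with a replicate block called 0 members, and the same tumours without the block also gave 0. There Col13a1 reversed to 1.01 with the block and 1.31 without, and Col23a1 to 0.31 and 0.57.

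Depth limits the rare chains, as Col19a1 was below the filter in every fit and Col22a1 in those of run 5625.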

Other observations

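Some collagens were high in a single tumour of the 73. Col18a1 reached 7910 CPM in KB2P tumour 31, against 3150 in the next tumour. Col8a2 reached 692 CPM in KB2P tumour 3, against 203.6 in KB1P tumour 2, the next. KB1PM tumour 8 had 34.9 CPM of Col1a1 beside 1244 CPM of Col1a2, a ratio per length of 0.0253 against a KB1PM median of 1.18. Its Col3a1 was 35.7 CPM.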
